A study of Mus musculus with 37 samples.

Results

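Leukaemia stem cells carrying the MLL-AF10 fusion were set against the normal blood progenitors that share their Kit-positive state, over every microRNA (miRNA) assay of the panel. The members were chosen by their labels: 3 runs of MLL-LSC and runs 1 to 3 of KSL, whose strain label is C57/Bl6, which are 6 of the 37 mouse runs in the series. MLL-LSC are MLL-AF10+ Kit+ cells sorted from mice given the oncogene by transduction, with strain label C57/Bl6 and genotype label wildtype, so the donor background of the control and of the leukaemia carries the same label. KSL are Kit+Sca-1+Lin- marrow cells of wildtype C57/Bl6 mice (KSL-B6 below), a gate that holds short-term stem cells and multipotent progenitors and that proliferates. The labels give neither the age of the mice nor the number of animals or of independent leukaemias behind the runs, so the p-values measure the spread between these runs, which may be technical. No assay of the panel measures the oncogene, Kit or Sca-1, so the gates could not be checked here. Further blood groups are given beside the main pair: KSL of mixed 129Sv/J:C57Bl6 mice (KSL-Mixed, 2 runs), KSL of C57/Bl6 mice with the AML-ETO9a transgene (KSL-ETO, 3 runs), long-term stem cells sorted from marrow (LT-HSC, 4 runs) and the MLL-AF10+ Kit- cells of the leukaemia (MLL-Prog, 3 runs).

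A mature miRNA guides a silencing complex to messenger RNAs that pair with its seed, bases 2 to 8 from its 5′ end, so miRNAs with the same seed can address the same sites. Fusions of MLL, a histone methyltransferase of the Hox loci, hold Hox genes active, and the miR-196 and miR-10 genes lie inside Hox clusters. In normal blood, miR-223 marks granulocytes and monocytes, miR-150 marks mature lymphocytes, and the miR-99/100, miR-125, miR-126 and miR-130a genes are known from stem and progenitor cells.

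The mature sequences of the miRNAs on which the results turn are printed 5′ to 3′ from RefSeq annotation of GRCm38.p6, with the seed in capitals. The Hox cluster miRNAs show that each seed has a pair of members: miR-196a at chr11:96265187-96265208 on the plus strand (1 of its 2 genes), miR-196b at chr6:52230129-52230150 on the minus strand, miR-10a at chr11:96317186-96317208 on the plus strand and miR-10b at chr2:74726074-74726096 on the plus strand. Counted from the 5′ end of the first named, miR-196a and miR-196b differ by A12C, and miR-10a and miR-10b by U12A.
miR-196a: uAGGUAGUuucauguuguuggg
miR-196b: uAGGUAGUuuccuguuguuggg
miR-10a: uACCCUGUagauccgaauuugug
miR-10b: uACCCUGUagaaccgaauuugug
The myeloid miRNA miR-223 lies at chrX:96242884-96242905 on the plus strand.
miR-223: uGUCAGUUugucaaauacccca
The 3 miRNAs of the miR-99/100 seed and the pair of the miR-125 seed are shown because they went undetected, or nearly so, in the leukaemia. They are miR-99a at chr16:77598940-77598961 on the plus strand, miR-99b at chr17:17830194-17830215 on the plus strand, miR-100 at chr9:41531437-41531458 on the plus strand, miR-125a at chr17:17830817-17830840 on the plus strand and miR-125b at chr16:77646279-77646300 on the plus strand (1 of its 2 genes). From miR-99a to miR-100 the change is U16A.
miR-99a: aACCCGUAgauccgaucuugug
miR-99b: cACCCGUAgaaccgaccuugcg
miR-100: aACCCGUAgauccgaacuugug
miR-125a: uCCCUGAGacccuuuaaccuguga
miR-125b: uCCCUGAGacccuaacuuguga
The stem and progenitor cell miRNAs miR-126, at chr2:26591402-26591423 on the plus strand, and miR-130a, at chr2:84741116-84741137 on the minus strand, share no seed with these.
miR-126: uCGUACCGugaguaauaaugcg
miR-130aN: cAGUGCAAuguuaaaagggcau
The miR-27 pair is shown because assays of its members went opposite ways. They are miR-27a at chr8:84208727-84208747 on the plus strand and miR-27b at chr13:63300760-63300780 on the plus strand, which differ by C19U.
miR-27a: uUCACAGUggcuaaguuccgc
miR-27bN: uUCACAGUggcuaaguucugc
Members of the miR-17 seed also differed in direction. They are miR-20a (assay miR-20) at chr14:115044183-115044205 on the plus strand, miR-93 at chr5:138165574-138165596 on the minus strand, miR-20b at chrX:52742159-52742181 on the minus strand and miR-106a at chrX:52742541-52742563 on the minus strand.
miR-20: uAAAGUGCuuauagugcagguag
miR-93: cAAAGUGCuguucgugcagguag
hsa-miR-20b: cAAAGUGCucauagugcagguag
mmu-miR-106a: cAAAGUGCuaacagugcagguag
The assays carry the names above, with a prefix or a final N in some cases, and no probe sequence was at hand.

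The readout was the threshold cycle (Ct) of quantitative PCR, the cycle at which the product becomes measurable, for 459 assays in a run, with 40 where nothing amplified. Abundant miRNAs cross early, and a gap of 1 cycle equals 1 log2 unit at full PCR efficiency. An assay was detected below Ct 35: 119 to 125 assays were detected in the MLL-LSC runs and 123 to 133 in the KSL-B6 runs. Over the 94 assays detected in all 6 runs the mean Ct was 27.37 to 27.51 in MLL-LSC and 27.69 to 27.87 in KSL-B6, and each run was centred on that mean to give a log2 level. Between runs of a group, Ct differences had an SD of 0.472 to 0.561 in MLL-LSC and 0.337 to 0.668 in KSL-B6. Where every run of 1 group missed an assay, or lay at the lowest level measurable in all 6 runs, the difference is a bound, written "or lower" or "or higher". Files of the 2 groups write an unamplified well differently, with a decimal in MLL-LSC, MLL-Prog and LT-HSC and without one in the 3 KSL groups, and what lies behind that cannot be told apart from the groups compared.

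Against normal progenitors, the leukaemia stem cells differed at most of the assays that could be tested. Of 135 tested assays 89 passed (65.9%; limma with Benjamini-Hochberg adjustment at 0.05), 47 higher in MLL-LSC (34.8%) and 42 lower (31.1%). In all 89 the 3 leukaemia runs lay wholly above or wholly below the 3 KSL-B6 runs, as they did in 74.1% of the tested assays. The falls were deeper than the rises: 18 of the falls and 7 of the rises reached 3 log2 units, and 14 falls and 6 rises were bounds. Of the 47 rises 35 were detected in all KSL-B6 runs, and of the 42 falls 26 in all MLL-LSC runs. The rest entered the test through 1 group only and could hardly have been called the other way. Among abundant assays, with a mean Ct under 25 over the 6 runs, 11 of 24 rose and 6 fell, while at a mean Ct of 30 or more 20 of 69 rose and 21 fell. The median difference of the tested assays was 0.16. It moved to 0.47 without scaling and to 0.53 when runs were centred on the median, so a direction holds relative to that centre. Centring on the median gave 52 higher and 29 lower.

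**Figure D1:**
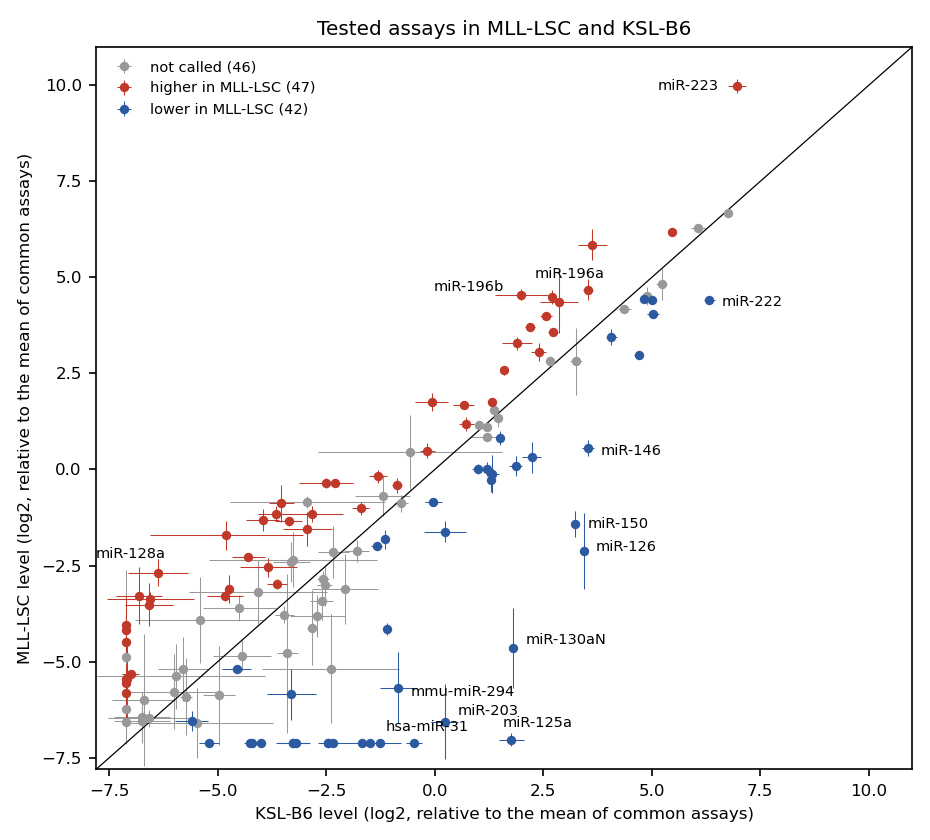
Mean log2 level of each of the 135 tested assays in KSL-B6 (x axis) and MLL-LSC (y axis), relative to the mean of the common assays, with bars for the SD of 3 runs. Red points (47) are higher and blue points (42) lower in MLL-LSC, and the row of blue points along the bottom holds assays at the floor in the leukaemia, with miR-125a just above it.

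Of the 3 marker miRNAs, miR-223 and miR-196b rose in the leukaemia and miR-150 fell. miR-223 crossed the threshold at Ct 17.7, 17.4 and 17.3 in MLL-LSC and at 20.9, 21 and 20.5 in KSL-B6. All leukaemia runs were lower in Ct, and the log2 difference was 3.02 ± 0.17 (SE, 3 runs against 3; limma adjusted p = 2.84e-05), an 8.12-fold rise. miR-223 had the lowest Ct of any assay in all 6 runs, level with miR-19b in KSL-B6 run 1, and under quantile normalization, which gives equal ranks equal values, the difference was 0.29 (adjusted p = 0.36). miR-196b, a miRNA of the Hoxa cluster, was at Ct 23.1, 22.8 and 22.8 in the leukaemia and at 26.2, 26.1 and 25 in KSL-B6. The groups did not overlap, although KSL-B6 run 3 lay more than 1 cycle below the other KSL-B6 runs, and the difference was 2.56 ± 0.32 (adjusted p = 0.000925). miR-150, the lymphocyte miRNA, which lowers the transcription factor Myb, went the other way. Its Ct was 29.1, 29 and 28.5 in MLL-LSC against 24.5, 24.7 and 24.4 in KSL-B6, a difference of -4.64 ± 0.20 (adjusted p = 9.02e-06). Every leukaemia run was higher in Ct than every normal run by more than 3 cycles.

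**Figure D2:**
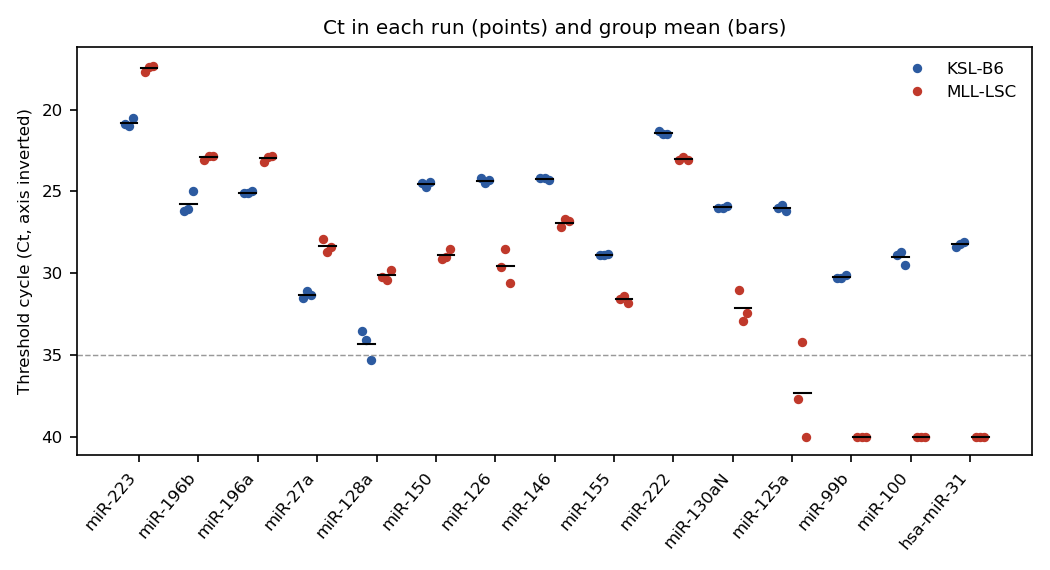
Ct of 15 named assays in each of the 3 MLL-LSC and 3 KSL-B6 runs (points) with the group mean (bars), on an inverted axis so that more RNA is higher. The dashed line is the detection limit of Ct 35. The 15 were chosen from the 89 calls, whose groups never overlap, as in 74.1% of all tested assays. The assays miR-99b, miR-100 and hsa-miR-31 were at 40 in all leukaemia runs.

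Of the Hox cluster miRNAs, the miR-196 pair rose and the miR-10 pair fell, although the fall of miR-10a depended on the scaling. miR-196a, a product of the Hoxb and Hoxc clusters, was at Ct 23.2, 22.9 and 22.8 in MLL-LSC and at 25.1, 25.1 and 25 in KSL-B6, a rise of 1.79 ± 0.14 (limma adjusted p = 0.000132). miR-10a, also of the Hoxb cluster, was at 27.6, 27.2 and 27.5 against 26.9, 26.8 and 26.6, and fell by 0.98 (SE 0.14, adjusted p = 0.00139). miR-10b, of the Hoxd cluster, was at 39.3, 37.8 and 40 in the leukaemia against 32, 31.9 and 32, a difference of -2.92 or lower. Thus 2 of the 4 tested Hox assays rose and 2 fell, against 34.8% and 31.1% of all tested assays. A second miR-10b assay was at 40 in all 6 runs. The miR-10a gene and 1 of the miR-196a genes lie 52111 bases apart at most on chromosome 11, from the outer ends of both hairpins. When runs were centred on the median, or quantile normalized, miR-10a was not called, and 1 of these 4 assays fell and not 2. Under quantile normalization 75% of the 4 differences were positive, that of miR-10a among them. Against KSL-Mixed miR-10a was called lower (-1.19 ± 0.14).

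Of the miRNAs known from blood stem and progenitor cells, 12 of 15 tested assays fell, against 31.1% of all tested assays. The median was -3.92 or lower, the bound of miR-125b, against 0.16 over all tested assays, and the only rises were the miR-196 pair. However, 7 of the 15 entered only through KSL-B6, since at least 1 leukaemia run missed them, and could hardly have been called higher. Of the 7 detected in all 6 runs 5 fell and 2 rose, and the last, miR-181c, was not called. Against KSL-Mixed 9 of 13 fell, where 37 of all 128 tested assays fell. The median there was -1.57 or lower, again the bound of miR-125b, so the sizes of the 2 medians cannot be compared. Against KSL-ETO 4 of 8 rose and 1 fell (40.8% and 37.7% over all assays). The rises were miR-196a, miR-196b, miR-10a and miR-130aN, and the fall was miR-126. Against LT-HSC 5 of 8 rose and 1 fell (39.8% and 13.8% over all assays). The rises were miR-196a, miR-196b, miR-10a and both miR-155 assays, and the fall was miR-130aN. The miR-99/100, miR-125 and miR-126* assays, which fell against KSL-B6, could not be tested against KSL-ETO or LT-HSC. miR-125a, which supports survival of normal stem cells, was at Ct 26, 25.8 and 26.2 in KSL-B6 and at 37.7, 34.2 and 40 in MLL-LSC. It was thus detected in 1 leukaemia run of 3, and with the other 2 runs at the floor the difference was -8.79 or lower (limma adjusted p = 1.31e-06). miR-100 was at 28.9, 28.7 and 29.5 in KSL-B6, miR-99a at 29.5, 29.1 and 29.7, miR-99b at 30.3, 30.3 and 30.1 and miR-125b at 30.7, 31.3 and 30.9. All 4 were at 40 in every leukaemia run, which puts their differences at -5.86, -5.46, -4.66 and -3.92, or lower. A second miR-99a assay (mmu-miR-99a) was also at 40 in the leukaemia, with a difference of -3.12 or lower. In this way all 3 miRNAs of the miR-99/100 seed and both of the miR-125 seed fell.

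miR-126, which restrains cycling of normal and leukaemic stem cells and is also the main miRNA of endothelium, was at Ct 24.2, 24.5 and 24.3 in KSL-B6 and at 29.6, 28.5 and 30.6 in MLL-LSC, a difference of -5.54 ± 0.50 (limma adjusted p = 0.000238). The other arm of its hairpin, miR-126*, was at 30.1, 30.6 and 30 against 40 in all 3 leukaemia runs (-4.66 or lower), so both arms were lower in every leukaemia run. miR-130a was at 26, 26 and 25.9 in KSL-B6 and at 31, 32.9 and 32.4 in MLL-LSC by the assay miR-130aN (-6.44 ± 0.52, adjusted p = 0.000161). The leukaemia runs were spread more widely than the normal ones and did not overlap them. A second assay, miR-130a, was at 40 in the leukaemia but missed 1 KSL-B6 run and was not tested. miR-155, an inflammatory and lymphoid miRNA, was at 31.6, 31.4 and 31.8 against 28.9, 28.9 and 28.8 (-3.04 ± 0.13, adjusted p = 9.02e-06), and its second assay fell by 1.91. miR-31 fell in both of its assays: hsa-miR-31 went from 28.4, 28.2 and 28.1 in KSL-B6 to 40 in all leukaemia runs (-6.66 or lower), and miR-31 from 29.2, 29.2 and 29.4 to 40, 38.2 and 39.3 (-5.62 or lower).

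Other large falls were measured outside the stem and progenitor cell list. miR-203, an epithelial differentiation miRNA, was at Ct 27.7, 27.8 and 27.1 in KSL-B6 and at 34.8, 32.8 and 35.4 in MLL-LSC, where 2 of 3 runs were at the floor (-6.79 or lower). A second miR-203 assay (mmu-miR-203) detected nothing in either group. mmu-miR-294, of the embryonic stem cell cluster, fell by 4.84 (SE 0.51), from 29, 28.7 and 28.1 to 33.8, 33.5 and 32.1. miR-146 dampens inflammatory signalling and was at 24.2, 24.2 and 24.3 against 27.2, 26.7 and 26.8 in the leukaemia (-2.98 ± 0.16, limma adjusted p = 2.51e-05). Its relative miR-146b fell by 0.61, a call that was lost without scaling, on centring by the median and without MLL-LSC run 2 (adjusted p = 0.0509). miR-222 and miR-221, which share a seed and a locus on chromosome X and target Kit, fell by 1.91 (SE 0.12) and 1.71 (SE 0.12). miR-222 was at 23.1, 22.9 and 23.1 in MLL-LSC and at 21.3, 21.5 and 21.5 in KSL-B6. The miR-221 assay that gave these values was mmu-miR-221, and the other was at 40 in all 6 runs. miR-218 fell by 2.54 (SE 0.44).

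The largest rises beyond the markers lay in assays that normal progenitors detected weakly. At least 1 KSL-B6 run missed miR-128a, miR-149, miR-200b and miR-378. These entered the test only through MLL-LSC and could hardly have been called lower. The missed KSL-B6 runs were set to the floor, so the rises of these assays are lower limits. miR-128a was at Ct 30.2, 30.4 and 29.8 in MLL-LSC and at 33.5, 34.1 and 35.3 in KSL-B6, a rise of 3.70 ± 0.39 (limma adjusted p = 0.000453) with 1 normal run undetected. miR-149 was at 30.5, 30.1 and 31.6 against 35.5, 35.4 and 33.9 (3.54 ± 0.46), and miR-200b at 31.1, 30.7 and 30.7 against 40, 38.3 and 33.1 (3.17 ± 0.51). In both, only KSL-B6 run 3 was detected among the normal runs. A second miR-200b assay (miR-200bN) was undetected in all runs of both groups. miR-378 was at 30.4, 31.3 and 31.2 against 37.7, 33.9 and 34.3 (3.07 ± 0.39). With the detection limit at Ct 32, miR-149 and miR-378 were no longer called (adjusted p = 0.0789 and 0.0983). miR-340 was at 28.9, 29 and 29.6 against 34.1, 33 and 30.6, and its rise of 3.09 ± 0.89 (adjusted p = 0.0241) was not called without MLL-LSC run 1, without MLL-LSC run 2, without KSL-B6 run 1 or without KSL-B6 run 2 (adjusted p = 0.053 to 0.082).

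Some rises were measured well within the range of both groups. miR-148a, which targets a DNA methyltransferase, was at Ct 28.8, 28.6 and 28.4 in MLL-LSC against 31.7, 31.7 and 30.9 (2.52 ± 0.24, limma adjusted p = 0.000313). miR-27a, which targets Runx1, was at 27.9, 28.7 and 28.4 against 31.5, 31.1 and 31.3 (2.66 ± 0.29, adjusted p = 0.000485). miR-210N, the second assay of the hypoxia miRNA miR-210, was at 27.9, 27.7 and 27.8 against 30.1, 30.2 and 29.9 (1.96 ± 0.11, adjusted p = 2.84e-05). The runs of the groups were well apart in all 3. The other miR-210 assay was not called (0.55 or higher, adjusted p = 0.0811), although without scaling, on centring by the median or under quantile normalization it was. miR-142-3p, a miRNA of all blood cells, rose by 1.52 (SE 0.12) and by 1.29 (SE 0.36) in a second assay, whose call was lost without MLL-LSC run 1 or without MLL-LSC run 3 (adjusted p = 0.0727 and 0.0512). With miR-223 and miR-142-5p (0.46 ± 0.16), 4 of 4 tested assays of the myeloid list rose (34.8% over all assays), or 3 of 4 when runs were quantile normalized or centred on their own detected assays. Of these 4, 3 are assays of the miR-142 hairpin. Against KSL-ETO 1 of 5 assays of the list rose and 3 fell (40.8% and 37.7% over all assays). Bounds were also reached by miR-182* (2.95 or higher), hsa-miR-431 (3.08 or higher), miR-422b (1.58 or higher) and mmu-miR-467 (1.31 or higher). Against KSL-Mixed none of the 4 was called, at 0.97, 1.11, 0.01 and 0.02. The mmu-miR-467 call was also lost without MLL-LSC run 2 and without each KSL-B6 run (adjusted p = 0.0519 to 0.0659). Of the p53-linked list 1 of 3 tested assays rose (34.8% over all assays), miR-192 (2.02), whose second assay gave 0.21 ± 0.43.

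The paralogous miR-23, miR-27 and miR-24 clusters share seeds and could be told apart only at miR-27, where assays differed in direction. The hairpins of miR-23b, miR-27b and miR-24-1 lie within chr13:63300484-63301275, and those of miR-23a, miR-27a and miR-24-2 within chr8:84208518-84208921. miR-27a rose, while its 1-base relative miR-27b was at Ct 27.3, 27.1 and 27.7 in MLL-LSC against 25.8, 25.9 and 26 and fell by 1.78 (SE 0.18) in the assay miR-27bN. The other miR-27b assay gave -0.31 ± 0.22 (limma adjusted p = 0.266). miR-23b fell by 1.84 (SE 0.29) in the assay miR-23bN, the miR-23a assay was at 40 in all 6 runs, and miR-24, which both clusters produce, fell by 0.98 (SE 0.12). Of the 5 tested assays of both clusters 1 rose and 3 fell, against 34.8% and 31.1% of all tested assays. On centring by the median 2 fell, and miR-24 was then not called. Against KSL-Mixed, miR-27a rose by 2.26 (SE 0.57) and miR-27bN was not called (-0.48 ± 0.34). The assay miR-23bN was not called there either, and its sign was the opposite (0.77 ± 0.37).

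The miR-17-92 cluster and its paralogues, proliferation miRNAs under Myc, mostly did not pass the test. Of 14 tested assays 4 rose and 2 fell, against 34.8% and 31.1% of all tested assays. The other 8 did not pass, and the median was 0.02. The rises were small: miR-20a (assay miR-20), at Ct 21.3, 21.2 and 21.3 against 22.2, 22.5 and 22.2, rose by 0.72 (SE 0.11), miR-18 by 0.69 (SE 0.16), miR-25 by 0.66 (SE 0.16) and miR-93 by 1.16 (SE 0.18), although a second miR-93 assay gave 0.12 ± 0.11. For miR-19a and miR-19b, the members best known as oncogenic in blood cancers, the difference was -0.08 ± 0.10 each. Both falls came from the X-linked paralogue at chrX:52741693-52742567. miR-20b was at 30.1, 29.9 and 30.3 in KSL-B6 and at 37, 36.1 and 40 in MLL-LSC (-4.79 or lower), and mmu-miR-106a was at 26.5, 26.6 and 26.3 against 27.6, 27.5 and 28.1 in the leukaemia and fell by 1.58 (SE 0.18). The other miR-106a assay gave 0.52 ± 0.41 (limma adjusted p = 0.305), and quantile normalization ended the call of mmu-miR-106a (adjusted p = 0.0581). Counts of rises in the cluster and its paralogues ranged from 4 to 6 over the other scalings, and quantile normalization ended the call of miR-20. Against KSL-Mixed 8 of 13 tested assays of the list rose and none fell, where 42 of all 128 tested assays rose and 37 fell.

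Among the miRNA families, the let-7 miRNAs, which mark differentiation, were divided. let-7g rose by 1.12 (SE 0.17), let-7b by 0.99 (SE 0.12) and let-7c by 0.86 (SE 0.11), while let-7i fell by 1.44 (SE 0.27). Thus 3 of 8 tested assays rose and 1 fell, against 34.8% and 31.1% of all tested assays. The other 4 did not pass. Quantile normalization ended the let-7c call, and on centring by the median no let-7 assay fell. let-7b was at Ct 24.8, 24.9 and 24.9 in MLL-LSC against 26.1, 26.2 and 26.2 in KSL-B6. Of the miR-15/16 family, which targets Bcl2, all 3 tested assays rose, against 34.8% of all tested assays. miR-15b did so by 1.82 (SE 0.24), whereas miR-16 (0.66 ± 0.17) and miR-195 (0.46 ± 0.15) lost the call without single runs. Without MLL-LSC run 2, KSL-B6 run 1 or KSL-B6 run 2 both did (limma adjusted p = 0.0537 to 0.0831), and without KSL-B6 run 3 miR-195 did (0.102). Quantile normalization also ended the miR-16 call (0.0728). A detection limit of Ct 38 (0.133) and the replicate block (0.0996) ended that of miR-195. With all 5 KSL runs as the control miR-15b was not called (3.76 ± 1.41, 0.0582). Of the miR-30 hairpins 4 of 7 assays rose and none fell, against 34.8% and 31.1% of all tested assays. Of the 4, 2 are of the 3p arm, which has another seed. miR-30a-3p rose by 2.02 (SE 0.19) and the other arm, miR-30a-5p, by 0.42 (SE 0.10), while the second assay of that arm, miR-30a-5pN, gave 2.09 ± 0.88 (limma adjusted p = 0.0811). The 3 tested miR-29 assays fell by 0.38 to 0.68 (31.1% of all tested assays fell). None of these 3 calls held without scaling, on centring by the median or under quantile normalization. Of 4 tested assays of the miR-26 family 2 fell, both of miR-26a, against 31.1% of all tested assays. These 2 calls were also lost without scaling and on centring by the median, where 2 and 1 assays of miR-26b rose instead.

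**Figure D3:**
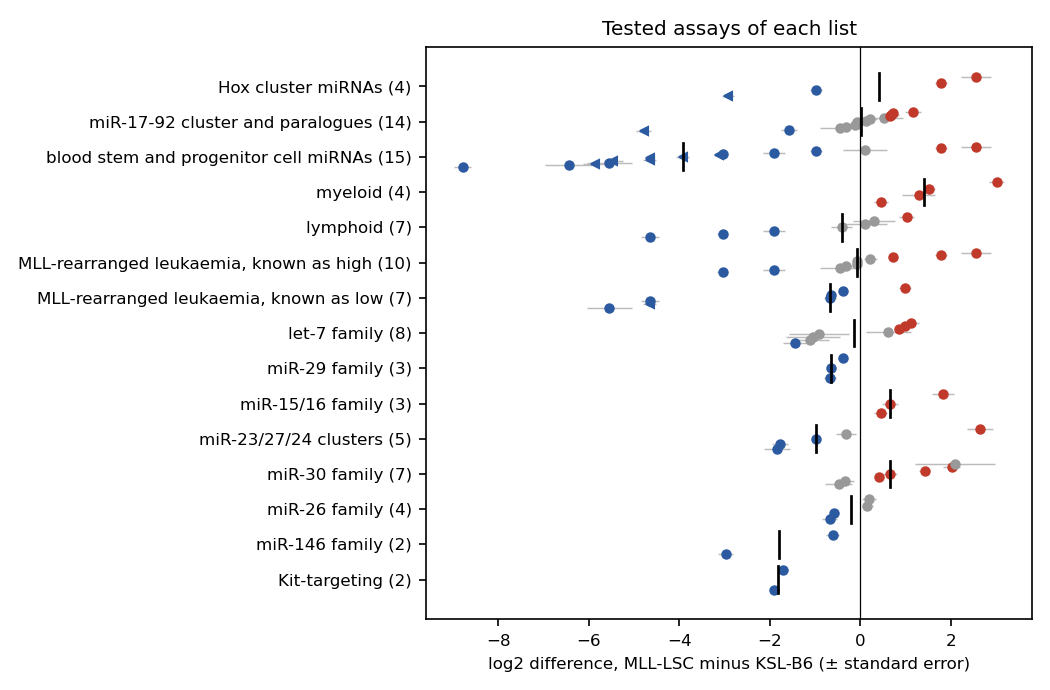
Log2 difference, MLL-LSC minus KSL-B6, of each tested assay of 15 lists (points, with the standard error), coloured red where higher and blue where lower at an adjusted p under 0.05, with triangles for bounds and a black bar for the median of the list. The number of tested assays stands in brackets, and the blood stem and progenitor cell miRNAs have their median at -3.92, which is a bound.

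Lists drawn from what is known of human and mouse MLL-rearranged leukaemia were set beside the calls. Of 10 tested assays known as high 3 rose, against 34.8% of all assays (miR-196b, miR-196a and miR-20), both miR-155 assays fell, and the miR-17, miR-19 and miR-92 assays did not pass. Of 7 tested assays known as low 6 fell, against 31.1% of all assays, namely miR-150, both arms of miR-126 and the 3 miR-29 assays, and let-7b rose. Without scaling 3 of the 7 fell. Lymphoid assays were 1 higher and 3 lower of 7, against 34.8% and 31.1% of all assays. miR-150 and both miR-155 assays fell, and miR-181b rose by 1.02 (SE 0.16) in the assay miR-181bN and gave -0.41 ± 0.23 in hsa-miR-181b. Among the 18 pairs of tested assays with the same miRNA name apart from prefix or final N, both were called in 6 and in the same direction in all 6, 1 of the pair was called in 8, and 4 pairs had opposite signs.

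Assays known from other tissues were few and mostly near the limit. Of the mesenchymal list, miR-145 was at Ct 28.7, 29 and 28.6 in MLL-LSC against 31.4, 31.7 and 32.1 (2.66 ± 0.25), and miR-143 at 32.1, 32.3 and 31.4 against 36.9, 38.5 and 37.5 (2.65 or higher), while miR-199a and miR-214 were at 40 in all 6 runs. Of the muscle list miR-206 rose by 1.68 or more, miR-1 was at 40 in all runs and miR-133a was undetected. Of 13 epithelial assays 4 were tested. miR-200b rose and miR-203 fell, and the second assay of each was undetected in all 6 runs. miR-200a and miR-205 were at 40 throughout. The neural miR-128a rose, and miR-124a was at 40 in all 6 runs. Both assays of erythroid miR-451 were at 40 in all 6 runs, and the 2 tested assays of the erythroid and megakaryocyte list are those of miR-210. Of 47 assays of the imprinted Dlk1-Dio3 cluster 4 were tested and 3 rose, against 34.8% of all tested assays. These were both miR-431 assays and miR-370, which rose by 1.56 to 3.08, the last a bound. A second miR-370 assay (mmu-miR-370) was undetected in all 6 runs. The remaining tested assay, miR-381, gave -0.81 ± 0.30 (limma adjusted p = 0.0557). Against KSL-Mixed miR-381 gave -2.58 ± 0.33 (adjusted p = 0.00485). miR-143, miR-206, miR-200b, miR-128a, miR-370 and hsa-miR-431 were each missed by at least 1 KSL-B6 run. They entered only through MLL-LSC and could hardly have been called lower, and with missed runs set to the floor their rises are lower limits. The part of other cells in these differences was not tested. In bulk samples, fewer cells of a type and less RNA per cell cannot be told apart. hsa-miR-522 (1.39 ± 0.21) and hsa-miR-520e (1.49 ± 0.46) were also called, although that miRNA cluster belongs to primates, and what these assays detect in mouse cells was not tested.

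The second set of normal progenitors, KSL-Mixed, detected fewer assays (98 to 102) and separated results that held with either control from those that did not. Of the 89 calls, 82 could be tested against KSL-Mixed, where 62 were called in the same direction, 18 were not called and 2 were called in the opposite direction. miR-223 (2.97 ± 0.27), miR-196b (2.64 ± 0.37), miR-196a (2.32 ± 0.34), miR-150 (-4.28 ± 0.25), miR-125a (-7.02 or lower), miR-126 (-5.08 ± 0.72) and miR-130aN (-6.34 ± 0.61) were called in the direction seen against KSL-B6. By contrast miR-145 (0.17), miR-143 (0.67), miR-206 (0.04) and miR-370 (both groups at the floor) were not called. The opposite calls were mmu-miR-431 (-0.89 ± 0.13, limma adjusted p = 0.00655) and hsa-miR-522 (-0.98 ± 0.22, adjusted p = 0.0231). The losses of miR-99a (-1.32 or lower, adjusted p = 0.05 rounded, just called) and miR-100 (-1.72 or lower, adjusted p = 0.0532, not called) rested on Ct values of 33.1 and 33.9 and of 32.5 and 33.7 in KSL-Mixed. hsa-miR-31 and miR-20b were undetected in both KSL-Mixed runs and were not tested, and miR-31, at 34.6 and 33.8, differed by -0.62 or lower.

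Beside the other blood groups, given as values because these comparisons share the leukaemia runs, the same leukaemia runs stood in different order for different miRNAs. Against KSL-ETO 102 of 130 tested assays were called (78.5%), 40.8% higher and 37.7% lower in MLL-LSC, and the runs of the groups did not overlap in 79.2%. Against LT-HSC 66 of 123 were called (53.7%), 39.8% higher and 13.8% lower, with no overlap in 62.6%. LT-HSC runs detected 73 to 96 assays, fewer than any other group. miR-196a and miR-196b were at Ct 40 in all 3 KSL-ETO and all 4 LT-HSC runs, and MLL-Prog gave 24.8, 24.5 and 24.6 for miR-196a and 25.8, 25.5 and 25.8 for miR-196b. Among these groups, then, the miR-196 pair was detected in both KSL sets without a transgene and in both leukaemia fractions. miR-223 was at 24.6 in each KSL-ETO run, at 19.5, 18.9, 19.1 and 19 in LT-HSC and at 17.6, 17.5 and 17.5 in MLL-Prog. The leukaemia stem cells were 6.19 ± 0.16 above KSL-ETO and gave -0.29 ± 0.17 against LT-HSC (limma adjusted p = 0.189). miR-150 was at 26.1, 25.9 and 25.9 in KSL-ETO, at 24.5, 24.5, 24.2 and 24.4 in LT-HSC and at 29, 28.8 and 28.6 in MLL-Prog, so both leukaemia fractions lay above every KSL-B6, KSL-Mixed, KSL-ETO and LT-HSC run in Ct.

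miR-99a and miR-125b were at Ct 40 in every KSL-ETO, LT-HSC and MLL-Prog run, as in MLL-LSC, and were detected in all 5 KSL runs without the transgene. The second miR-99a assay was at 34.8 in 1 KSL-ETO run. miR-125a was detected in 2 of 3 KSL-ETO runs (31.8 and 32.2, with 35.2 in the other), in 1 of 4 LT-HSC runs (29.8) and in no MLL-Prog run. The pair of miR-221 and miR-222 was lower in MLL-LSC than in KSL-B6 yet higher than in KSL-ETO, where miR-222 was at 29.5, 28.5 and 28.4 (difference 4.83 ± 0.39) and mmu-miR-221 at 31.9, 32.7 and 30 (6.13 ± 0.66). miR-27a was at 28, 28.6 and 28.4 in KSL-ETO, against which MLL-LSC differed by -0.94 ± 0.27 (limma adjusted p = 0.0199). miR-31 stood at 24.2 in all 3 KSL-ETO runs and at 40 in all MLL-Prog runs. miR-126 was undetected in 2 MLL-Prog runs (34.9 in the other), and in LT-HSC ran from 28.6 to 40, so that the difference to MLL-LSC was 0.42 ± 1.45 (adjusted p = 0.842). miR-148a was detected in 2 of 3 MLL-Prog runs, at 33.7 and 32.1, later than in any MLL-LSC run. Of the 47 assays higher in MLL-LSC than in KSL-B6, 42 were detected in all MLL-Prog runs, 31 in all KSL-ETO runs and 18 in all LT-HSC runs. Of the 42 lower assays, 18 were detected in no MLL-Prog run, 13 in no MLL-LSC run, 10 in no KSL-ETO run and 13 in no LT-HSC run. The 47 were all detected in every MLL-LSC run and the 42 in every KSL-B6 run, so these counts depend on how the assays were chosen. The share over all tested assays was not worked out.

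**Figure D4:**
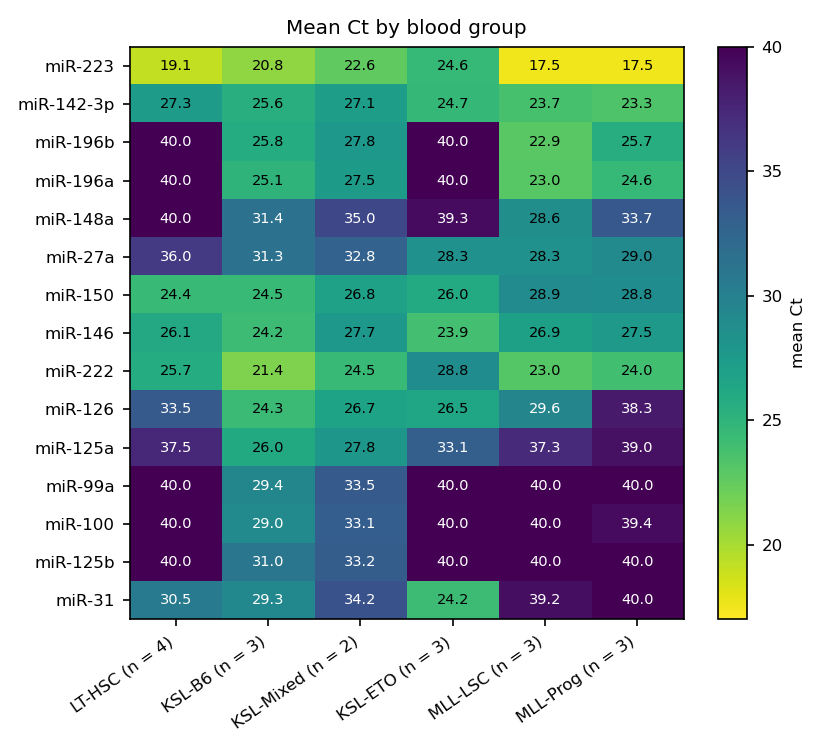
Mean Ct of 15 named assays (rows) in 6 blood groups (columns, with the number of runs), from yellow (more RNA) to dark (40, no amplification). The miR-196 pair is at 40 in LT-HSC and KSL-ETO and at 22.9 to 23 in MLL-LSC, and miR-99a, miR-100 and miR-125b are below 32 only in KSL-B6.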

How the data were processed

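Per the labels, 20 to 1000 sorted cells per sample were lysed and miRNAs measured by multiplex reverse transcription and TaqMan quantitative PCR, with 425 mature miRNAs stated. The deposited values are Ct values for 459 assays (457 names) in a unit outside the usual expression units, and the sources used here name no software, threshold or normalization of the authors. The other 19 runs of the series were not used.

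Levels were each run's mean Ct over the assays detected (below Ct 35) in every run compared, minus the assay's Ct. Levels under the lowest one measurable in all runs compared were set to that floor, and values were rounded to 8 decimals. Assays detected by all runs of MLL-LSC, of the control or of both entered the test, a two-sided fit with limma 3.58.1 (R 4.3.3, with jsonlite 2.0.0 for the labels) and Benjamini-Hochberg adjustment over all tested assays at 0.05. A group at the floor has no spread of its own, so the standard error of a bound is understated. The number of runs limits the precision, and template depth is unknown. The method was tested on simulated data.

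The rule for named assays drew on calls whose groups did not overlap. From these it took the 10 largest rises and falls measured on both sides and the 8 largest bounds each way. It added the 3 markers and up to 3 members per list of 24 lists by adjusted p. Further list members and assays were named after their values were seen. The members and lists were chosen with earlier results of these data known. Whether same-numbered runs deviated together was checked by the correlation of their deviations from the group means. It was -0.05, -0.41 and -0.29 between MLL-LSC and KSL-B6, so no pairing was used. Between MLL-LSC and LT-HSC it was 0.14, 0.28 and 0.19, where the labels give only a shared number. Alternatives covered detection limits, scaling, the floor, the filter, the samples in the fit, a replicate block, the control and single runs.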

Additional observations from a re-analysis of the deposited data

Results flagged for a closer look

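In LT-HSC, miR-30a-5p was at Ct 33.8 in run 1 and at 28.3, 28.5 and 28.2 in the other runs. The gap between run 1 and the nearest run is a larger share of the group's range than Dixon's 95% limit for 4 values allows, and chance alone gives about 1 such group in 20. The assay was at 25.8, 25.6 and 25.7 in MLL-LSC and at 26.4, 26.5 and 26.4 in KSL-B6, and the comparison of those groups does not use the LT-HSC runs.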

How the results depend on the processing

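The 89 calls of MLL-LSC against KSL-B6 became 61 to 97 under the alternatives that kept KSL-B6 as the control, lowest when only the 94 assays detected in every run were tested and highest with a detection limit of Ct 38. They became 79 with KSL-Mixed and 70 with all 5 KSL runs as the control. Leaving out 1 run gave 80 to 93. With the replicate block 84 were called (82 shared with the fit without it). Without scaling the split was 54 higher and 34 lower, and with quantile normalization 51 and 33. A fit over all 6 blood groups called 63, and among the assays named by the rule it ended 17 calls. Some had a smaller difference (miR-10b at -0.10) and some a similar one and a larger error (miR-27bN at -1.65, SE 1.01). That fit centred on 44 common assays and took its floor from all runs in it. There miR-370, miR-206, miR-422b and mmu-miR-467 lay at the floor in both groups, with a difference of 0. The cause was not tested. Among the assays named by the rule and called against KSL-B6 the direction turned for miR-29bN, at 0.13 when centred on the median. It also turned for mmu-miR-431, at -0.89 with KSL-Mixed as the control. Assays named outside the rule were not followed through every alternative. Of these, hsa-miR-522 (-0.98), hsa-miR-520e (-1.06, not called) and miR-23bN (0.77, not called) turned with KSL-Mixed, and miR-10a under quantile normalization. The cause was not tested. Against KSL-ETO leaving out 1 run gave 92 to 97 calls, the replicate block 100, and no scaling 73 higher and 30 lower against 53 and 49. Against LT-HSC leaving out 1 run gave 55 to 81, with 81 reached without LT-HSC run 1, and the replicate block gave 54 against 66. There, Ct 32 left 37 calls, testing only assays detected in every run left 32 of 50, and no scaling gave 107 (93 higher, 14 lower), and centring on the median 27 higher and 21 lower, so counts against LT-HSC depend on depth and scaling. Precision is limited by 3 runs a group, and a fall past the floor has no measured size.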
